A study of Mus musculus with 24 samples.

Results

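Integrins are surface receptors made of 1 alpha and 1 beta subunit, and laminins are secreted trimers of 1 alpha, 1 beta and 1 gamma chain. The genes described here are every integrin subunit and laminin chain on the array with a probe set annotated to a single gene symbol: 18 integrin alpha subunits, 8 integrin beta subunits and 10 laminin chains. These 36 genes were drawn from 19938 genes measured, and each was read from its probe set with the highest mean level (37 probe sets carry the 36 symbols, since Itgad has a pair). Within these families the genes were picked by name, and a measured value entered only in the choice between the Itgad probe sets. The families themselves were chosen with earlier results of these data known.

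Integrins hold cells to matrix proteins such as laminin, collagen and fibronectin, or to counter-receptors on other cells, and they are switched on from inside the cell by talin and kindlin proteins. The beta subunit Itgb2 with its alpha partners Itgal, Itgam, Itgad and Itgax makes the leukocyte integrins, which carry adhesion to endothelium, uptake of complement-coated particles and contact with T cells. Laminins are the scaffold of basement membranes, the sheets under epithelia, and their main receptors pair Itga3, Itga6 or Itga7 with Itgb1, or Itga6 with Itgb4 in hemidesmosomes.

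The study compared mouse cells at rest and in an inflammatory setting meant to mimic genital Chlamydia infection, in 6 groups of 4 arrays. The label calls C57epi.1 an epithelial line, grown out of upper reproductive tract from C57BL/6 mice. Bm12.4 is a line of the same tissue from B6(C)-H2-Ab1bm12/KhEgJ mice, which carry a variant MHC class II beta allele. The third kind of cell was macrophages, derived with GM-CSF out of bone marrow from C57BL/6 femurs. Each kind of cell was left in RPMI medium ("media") or given 33% (v/v) supernatant, which was medium conditioned by a CD4 T cell clone specific for Chlamydia on infected epithelial cells, brought to 4 ng/ml interferon-gamma ("supernatant"). The control medium held neither conditioned medium nor added interferon-gamma. Effects of T cell products, of products of the infected cells and of interferon-gamma therefore cannot be told apart. Each line is a single line of its genotype, so genotype and line cannot be told apart. The labels do not say whether the 4 replicates of a group were separate cultures or animals, so the p-values measure the spread between arrays, which may be technical.

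All levels are log2 values, so a difference of 1 is a 2-fold change, and a level can be compared between groups for 1 gene but not between genes. Array medians lay between 5.00 and 5.19. A gene was called different when its limma test, adjusted by Benjamini-Hochberg over all 19938 genes, gave a p under 0.05. The macrophage marker list (12 genes) averaged 11.45 to 11.73 per array in macrophages and 4.01 to 4.38 in the lines, where the leukocyte marker Ptprc read 3.96 to 4.18 by group. The epithelial list (14 genes) averaged 6.09 to 6.22 per array in C57epi.1 media, 5.52 to 5.64 in Bm12.4 media and 4.61 to 4.76 in macrophage media. In media 5 of its genes were called higher and 1 lower in the lines, against 24.7% and 22.4% of all genes. Among its genes Krt19 was high in the lines (11.31 ± 0.42 in C57epi.1 media and 11.77 ± 0.40 in Bm12.4 media, SD, n = 4), but the defining epithelial markers Epcam (3.74 and 3.71) and Cdh1 (4.34 and 4.50, beside 6.65 in macrophages) were low. The fibroblast and mesothelial list averaged 8.21 to 9.48 per array in the lines and 5.13 to 5.47 in macrophages. In macrophage media the dendritic cell list (7 genes) averaged 5.30 to 5.68 per array, beside 4.09 to 4.29 in line media. The endothelial list (6 genes) averaged 5.71 to 5.76, beside 3.77 to 4.31. The platelet and megakaryocyte list (3 genes) averaged 8.04 to 8.17, beside 4.40 to 5.30. Each had 2 genes at 6 or more in macrophage media. The macrophage list therefore bears out the macrophage label, and the lists bear out the epithelial label only in part. In both lines in media, replicates 1 and 2 stood apart from replicates 3 and 4 (with no overlap in 52.4% of all genes in C57epi.1 and 62.7% in Bm12.4, beside 33.2% in macrophage media). A list of 14 cell-cycle genes averaged 8.96 to 10.15 per array in C57epi.1 media and 7.33 to 9.98 in Bm12.4 media, with replicates 1 and 2 above replicates 3 and 4 in both. The labels name no batch behind this split. Supernatant effects in the lines are given within each pair of replicates for some of the genes where the pairs differ.

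Of the 36 genes, 22 had a mean level of 6 or more in at least 1 group. The other 14 read between 2.90 and 6.22 on every array: the integrins Itga2, Itga7, Itga8, Itga9, Itga10, Itga11, Itgae, Itgb4 and Itgb6, and the laminin chains Lama1, Lama2, Lama3, Lamb3 and Lamc3. This list holds Itgb4, the hemidesmosome subunit, Itgb6, a beta subunit of many epithelia, and Lama3 and Lamb3, chains of the epithelial laminin under hemidesmosomes. No detection p was used, so a low level here is not a statement that the gene was silent. Genes at 6 or more numbered 11 in C57epi.1 media, 13 in Bm12.4 media and 16 in macrophage media, and with supernatant 11, 13 and 15.

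**Figure D1:**
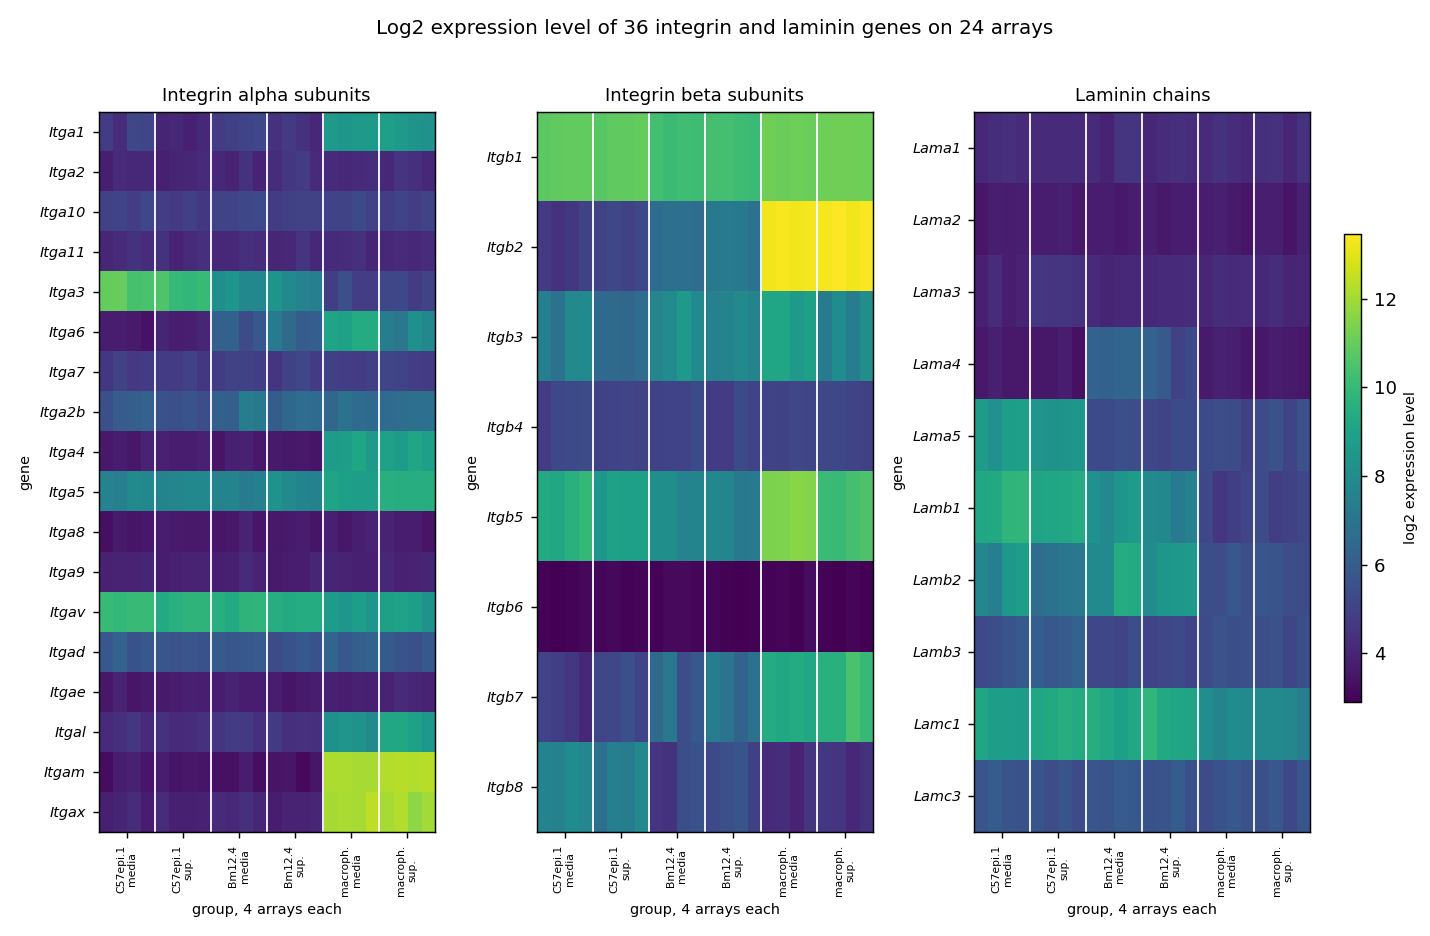
Log2 expression level (colour) of the 36 genes (rows, in 3 panels for alpha subunits, beta subunits and laminin chains) on the 24 arrays (columns, 4 per group, white lines between groups). Colours compare arrays within a row; Itgam, Itgax and Itgb2 were high on the 8 macrophage arrays, and Lama5 and Itgb8 on the 8 C57epi.1 arrays.

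The leukocyte integrin subunits Itgb2, Itgal, Itgam and Itgax separated macrophages from both lines, and Itgad did not. In media 20 of the 36 genes differed between the lines (their mean) and macrophages, 8 higher in the lines and 12 lower. Among all genes the shares were 24.7% and 22.4%, so the 8 higher are near the background. All 12 that were lower are integrins, out of 26, while of the 10 laminin chains 5 were higher and 0 lower (limma with Benjamini-Hochberg; at an unadjusted p under 0.05, 5 were higher and 1, Lama3, lower). The median difference of the 36 genes was -0.08, beside 0.005 for all genes. With supernatant the count was 23, 9 higher and 14 lower, against 24.3% and 24.4% of all genes, so the 9 higher are near the background. In bulk RNA, fewer cells of a type and less RNA per cell cannot be told apart.

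Itgam, the alpha subunit of the complement receptor of phagocytes, read 12.18, 12.14, 12.07 and 12.07 on the 4 macrophage arrays in media. On the C57epi.1 arrays it read 3.25, 3.72, 3.85 and 3.55, and on the Bm12.4 arrays 3.39, 3.37, 3.71 and 3.29. The groups lay far apart, with a measured difference of -8.60 (SE 0.0979, 388-fold, limma adjusted p = 4.36e-26). Itgax, which marks dendritic cells and GM-CSF macrophages, read 12.04 to 12.39 in macrophage media and 3.72 to 4.36 in the lines (275-fold). Their shared beta subunit Itgb2 read 13.24, 13.36, 13.24 and 13.31 in macrophage media and was 195-fold lower in the lines on average. Where the line arrays read under 6, these folds compare measured levels, and background signal there may make them too small.

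Itgam, Itgax and Itgad lie next to each other in the RefSeq gene table, and 2 of the 3 were high in macrophages. Itgad, the remaining neighbour and another partner of Itgb2, read 5.81 to 6.34 in macrophage media and 5.55 to 6.24 in the lines. These ranges overlap, and the difference (-0.28) did not pass the test in the main fit. It passed in 6 of 23 alternative fits. The 250 bases before the RefSeq start of Itgam (GRCm38.p6, chr7:128062390-128062639, plus strand) and of Itgax (chr7:128129300-128129549, plus strand) are shown because these genes had the widest measured gaps between macrophages and lines. The promoter of Lama5 (chr2:180225860-180226109, minus strand) is shown for contrast, as the gene with the widest gap between the lines. Capitals mark GAGGAA on either strand, the core letters of the site read by the myeloid factor PU.1.
Itgam: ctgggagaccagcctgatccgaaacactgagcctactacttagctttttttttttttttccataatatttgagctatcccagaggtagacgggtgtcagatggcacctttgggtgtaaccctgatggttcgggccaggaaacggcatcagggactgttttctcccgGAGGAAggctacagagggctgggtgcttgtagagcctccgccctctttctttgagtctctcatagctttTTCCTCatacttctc
Itgax: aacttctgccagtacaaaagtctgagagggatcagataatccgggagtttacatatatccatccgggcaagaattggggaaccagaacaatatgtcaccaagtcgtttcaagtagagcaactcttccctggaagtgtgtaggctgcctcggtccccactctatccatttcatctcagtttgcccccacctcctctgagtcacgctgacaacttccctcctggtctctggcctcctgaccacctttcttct
Lama5: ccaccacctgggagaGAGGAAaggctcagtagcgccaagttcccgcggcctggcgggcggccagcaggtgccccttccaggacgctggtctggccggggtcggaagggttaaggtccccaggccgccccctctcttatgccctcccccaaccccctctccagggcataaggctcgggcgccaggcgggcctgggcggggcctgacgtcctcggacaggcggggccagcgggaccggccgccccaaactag

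The Itgam window holds the letters 2 times, the Itgax window 0 times and the Lama5 window 1 time. Over 32851 RefSeq windows of this length, without chromosome 18, 23.3% hold GAGGAA on either strand. So do 13 of the 26 windows that matched 23 of the 36 genes. GGGCGG, the Sp1 box, is in 32.7% of all windows and in 9 of the 26, and TGANTCA, the AP-1 letters, in 6.75% and in 1 of the 26. These are matches of letters in a window, not bound sites. Sequences are from RefSeq.

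Among the other leukocyte subunits, Itgal, which binds Icam1, read 7.90 to 8.39 in macrophage media and 4.15 to 4.77 in the lines (13.5-fold lower in the lines). Itga4, which binds Vcam1 and fibronectin, read 8.59 to 9.17 in macrophage media and 3.44 to 3.97 in the lines (34.3-fold). Its partner Itgb7 read 9.20 to 9.41 in macrophages and was 14.5-fold lower in the lines on average, with unequal levels in the lines that are described below. Itgae, which pairs with Itgb7 on intraepithelial T cells, read 3.50 to 4.17 on every array. With supernatant it passed the test (difference -0.32, adjusted p = 0.00114), within a range where no group mean exceeded 4.01.

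**Figure D2:**
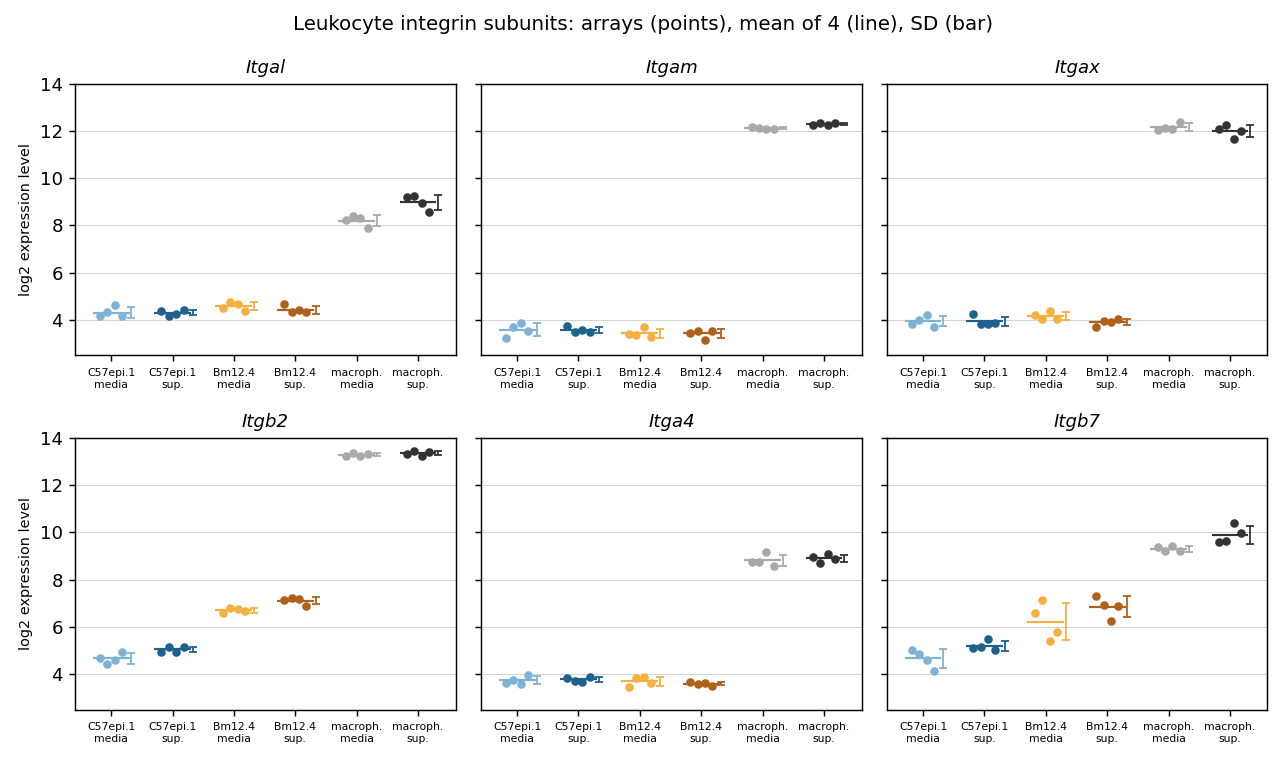
Log2 level of 6 leukocyte integrin genes on each array (points), with the mean of 4 arrays (line) and SD (bar), in 3 kinds of cell in media or supernatant (sup.). Itgam, Itgax and Itga4 sat at 3.17 to 4.36 on all line arrays, whereas Itgb2 and Itgb7 were higher in Bm12.4 than in C57epi.1.

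Integrins that bind collagen and the RGD motif of matrix proteins were not all biased the same way. Itga1, a collagen receptor subunit, read 8.50 to 8.65 in macrophage media and 4.25 to 5.17 in the lines (13-fold lower in the lines). The vitronectin and RGD receptor subunits Itgb5 and Itgb3 were lower in the lines by 6.79-fold and 2.2-fold, and Itga5, the fibronectin receptor, by 2.42-fold. Itgav, the alpha subunit that pairs with Itgb3, Itgb5 and Itgb8, was instead 2.32-fold higher in the lines (9.36 to 10.05, against 8.41 to 8.80 in macrophages). Itgb1, the beta subunit shared by most matrix receptors, was high everywhere, at 10.10 to 10.92 in the lines and 11.03 to 11.18 in macrophages, a 1.46-fold difference (adjusted p = 7.97e-08).

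Itgb8, which with Itgav frees active TGF-beta from its latent form, was 4.47-fold higher in the lines on average, but its ranges overlapped: the Bm12.4 arrays read 4.54, 4.45, 5.45 and 5.57 and the macrophages 3.97 to 4.48. Itga2b, the platelet receptor subunit, was called with supernatant, where it was 0.73 lower in the mean of the lines (limma adjusted p = 0.00279). There C57epi.1 read 5.42 to 5.63, while Bm12.4 read 6.00 to 6.66 and overlapped the macrophages at 6.60 to 6.78. The difference therefore came mostly from C57epi.1. In media the lines and macrophages differed by less than the threshold asks.

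Both main alpha subunits of laminin receptors were expressed, in opposite cells. Itga3 read 10.96, 11.02, 10.37 and 10.41 in C57epi.1 media, 8.07, 8.45, 7.81 and 7.83 in Bm12.4 media, and 4.85, 5.47, 4.83 and 4.80 in macrophage media. The 3 kinds of cell did not overlap, and the lines were 20.8-fold higher than macrophages on average (difference 4.38, SE 0.181, adjusted p = 1.05e-15). Itga6 had the reverse order: 9.06, 8.95, 9.41 and 9.40 in macrophage media, 6.12, 6.16, 5.31 and 5.77 in Bm12.4 media, and 3.40 to 3.76 in C57epi.1 media. Macrophages were 22-fold above the mean of the lines (adjusted p = 1.7e-14). Their partner Itgb1 was high in all 6 groups, while Itgb4, the other partner of Itga6, read 4.73 to 5.31 on every array.

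Laminin chains were the other main difference. Lamb1 read 9.24 to 9.87 in C57epi.1 media, 7.96 to 8.72 in Bm12.4 media and 4.56 to 5.18 in macrophage media (16.3-fold higher in the lines, adjusted p = 6.28e-16). Lamb2 read 7.42 to 9.43 in the lines and 5.39 to 5.75 in macrophages (7.44-fold). Lamc1, the gamma chain of most laminins, was high in all groups and 2.17-fold higher in the lines, at 8.68 to 9.50 against 7.64 to 8.08.

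Each line carried a different laminin alpha chain. Lama5, the alpha chain of mature epithelial basement membranes, read 8.71, 8.26, 8.77 and 8.85 in C57epi.1 media, but 5.29, 5.26, 5.48 and 5.38 in Bm12.4 media and 4.89 to 5.38 in macrophages. Lama4, the alpha chain of vessel and mesenchymal basement membranes, read 6.24, 6.17, 6.35 and 6.35 in Bm12.4 media, but 3.61 to 3.82 in C57epi.1 and 3.57 to 3.87 in macrophages. For both genes the line with the low level overlapped the macrophages, so the called differences between lines and macrophages (1.77 for Lama5 and 1.25 for Lama4) came from 1 line each.

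**Figure D3:**
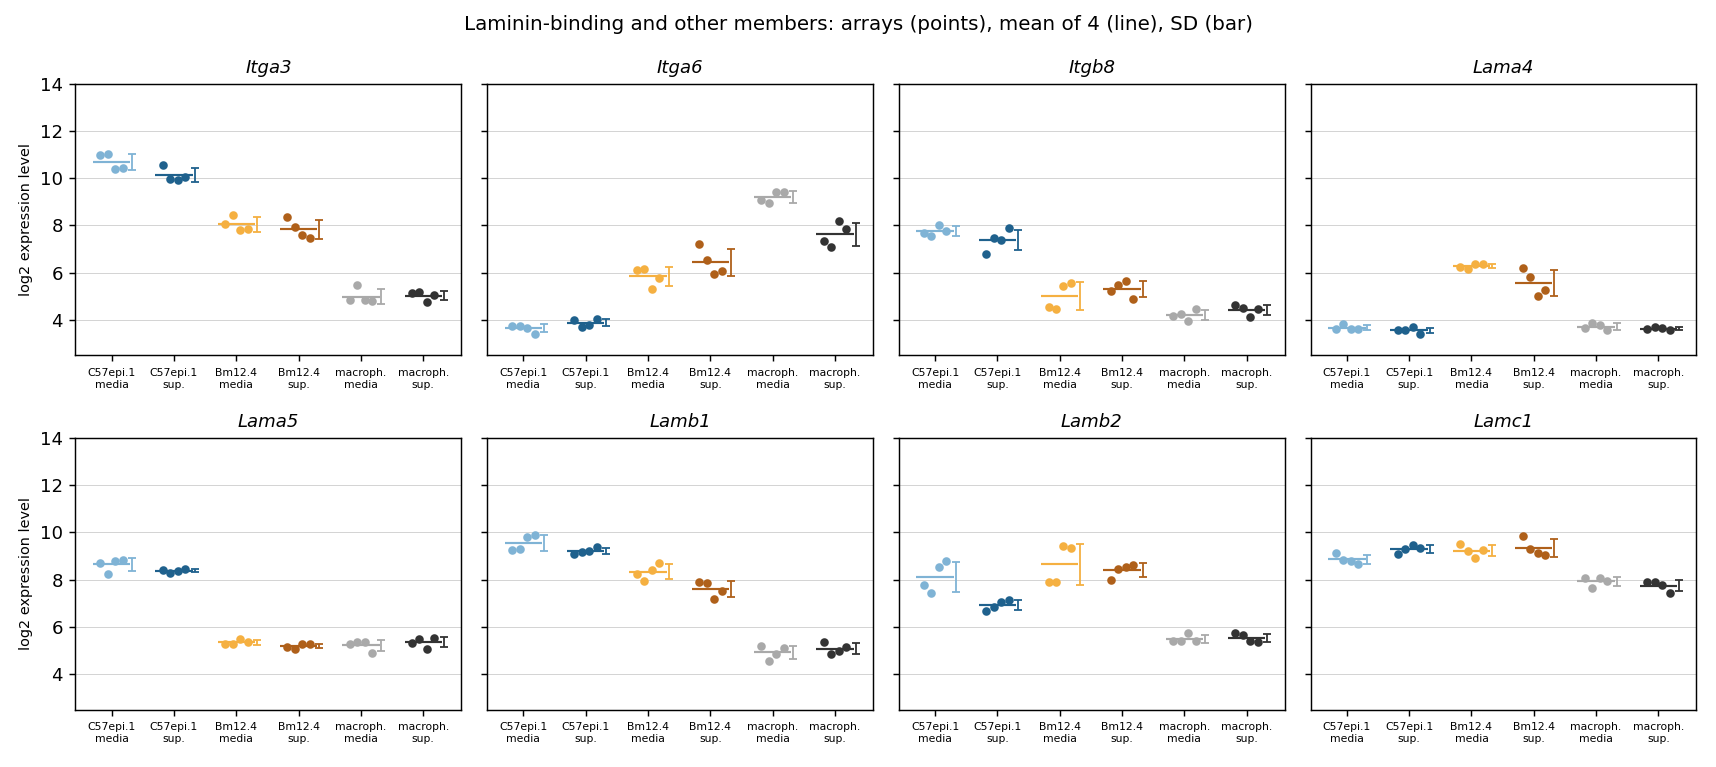
Log2 level of 8 genes on each array (points), with the mean of 4 arrays (line) and SD (bar): laminin receptor subunits Itga3 and Itga6, the RGD receptor subunit Itgb8, and 5 laminin chains, in 3 kinds of cell in media or supernatant (sup.). Lama5 and Itgb8 were high in C57epi.1, Lama4 was at 6.17 to 6.35 in Bm12.4 media and at most 3.87 in the other kinds of cell, and Itga3 and Itga6 had opposite orders.

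C57epi.1 and Bm12.4 differed in media at 13 of the 36 genes, 8 higher in C57epi.1 and 5 lower, against 12% and 12.5% of all genes. The 5 lower are near the background. The median difference over the 36 genes was -0.07, beside -0.008 for all genes. Lama5 was 9.82-fold higher in C57epi.1 (difference 3.29, SE 0.125, adjusted p = 1.69e-15), Itgb8 6.75-fold, Itga3 6.28-fold, Itgb5 3.12-fold and Lamb1 2.33-fold. Itgb1 was 1.6-fold higher.

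In the other direction, Lama4 was 6.11-fold higher in Bm12.4 (difference -2.61, SE 0.163, adjusted p = 1.5e-11) and Itga6 4.58-fold. Itgb2, the leukocyte beta subunit, read 6.59, 6.80, 6.75 and 6.66 in Bm12.4 media and 4.69, 4.42, 4.61 and 4.94 in C57epi.1 media. These arrays did not overlap and differed 4.1-fold (adjusted p = 1.35e-13). Itgb7 was 2.95-fold higher in Bm12.4 (adjusted p = 0.000205), at 6.57, 7.14, 5.40 and 5.79 against 4.13 to 5.04.

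The alpha partners of Itgb2 and Itgb7 stayed low in Bm12.4: Itgam at 3.29 to 3.71, Itgax at 4.02 to 4.36, Itgal at 4.38 to 4.77 and Itga4 at 3.44 to 3.88 in media. Itgae, a partner of Itgb7, read 3.74 to 3.90 there. Itgad, a further partner of Itgb2, read 5.74 to 5.92 there, beside 5.81 to 6.34 in macrophage media. The macrophage marker list averaged 4.05 to 4.27 per array in Bm12.4 media and 4.11 to 4.38 in C57epi.1 media, with Cd68 as the 1 gene of 12 at 6 or more in either. The T cell list (7 genes) averaged 3.90 to 4.10 and the neutrophil list (8 genes) 3.62 to 3.87 in Bm12.4 media, with no gene at 6 or more.

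Weaker calls in media were Itga2b (-0.76, adjusted p = 0.0138), Itgav (0.37, 0.0476) and Lamb3 (0.35, 0.0482). Itga2b was lost without C57epi.1 media replicate 1 (0.0642) or Bm12.4 media replicates 3 (0.0764) or 4 (0.0658). Itgav was lost without C57epi.1 media replicate 1 (0.0867), 3 (0.0956) or 4 (0.0984), or Bm12.4 media replicate 1 (0.0983) or 2 (0.162). Lamb3 was lost without C57epi.1 media replicate 3 (0.119) or 4 (0.203), or Bm12.4 media replicate 1 (0.0926), 2 (0.0867) or 3 (0.135). In a fit of these 2 groups with the replicate number as a block, 14 genes were called and 12 were shared: Lamb3 was lost (adjusted p = 0.0551), while Lamb2 (-0.52, 0.0227) and Lamc1 (-0.36, 0.042), both higher in Bm12.4, passed.

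With supernatant on both lines 16 genes differed, 8 higher in C57epi.1 and 8 lower, against 14.3% and 15.6% of all genes. Lama5 (3.19), Lama4 (-2.02), Itga3 (2.29), Itga6 (-2.57), Itgb8 (2.07) and Itgb2 (-2.06) had differences of at least 4-fold. Called there but not in media were Lamb2 (-1.48, adjusted p = 0.00059), Itgb3 (-1.14, 0.000325), Lama3 (0.34, 0.00559) and Itga2 (-0.44, 0.0161). Itga2 was lost without C57epi.1 supernatant replicate 1 (0.0623) or Bm12.4 supernatant replicate 3 (0.0845).

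Supernatant changed 7 of the 36 genes in C57epi.1, 3 up and 4 down, against 8.85% and 10.4% of all genes. Both counts are near the background. The median difference of the 36 was -0.03, beside -0.05 for all genes. Lamb2 fell most: it read 7.77, 7.42, 8.54 and 8.78 in media and 6.67, 6.85, 7.05 and 7.14 with supernatant. The arrays did not overlap, and the difference was -1.20 (2.3-fold, SE 0.308, adjusted p = 0.00715). Itgb3 read 7.46, 6.90, 7.88 and 7.96 in media and 6.50, 6.57, 6.39 and 6.68 with supernatant, a 2.02-fold fall (adjusted p = 0.00209).

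Itga1 fell by 0.82 (SE 0.165, adjusted p = 0.000856), from 4.77, 4.25, 5.16 and 5.12 to 4.00, 4.11, 3.84 and 4.06, at low levels in both groups. Itgb5 fell by 0.74 (SE 0.175, adjusted p = 0.00371), from 9.22 to 9.94 down to 8.45 to 8.93. All 4 falls were larger in replicates 3 and 4 than in replicates 1 and 2: Lamb2 by -1.56 and -0.83, Itgb3 by -1.39 and -0.65, Itga1 by -1.19 and -0.45, and Itgb5 by -0.88 and -0.60. Within replicates 1 and 2 alone, Itgb3 (adjusted p = 0.0974) and Itga1 (0.12) did not pass. The cell-cycle list averaged 8.96 to 10.15 per array in media and 9.39 to 9.69 with supernatant, and its part in these falls was not tested. The fibroblast and mesothelial list averaged 8.51 to 9.46 per array in media and 8.21 to 8.40 with supernatant, and its part was likewise not tested.

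The 3 rises in C57epi.1 were small. Itgb2 rose by 0.38 (adjusted p = 0.00693), from 4.42 to 4.94 up to 4.93 to 5.17. It did not pass in a fit of these 2 groups alone (0.0593) or within replicates 3 and 4 (0.158). Lama3 read 3.82, 4.23, 3.76 and 3.94 in media and 4.60, 4.52, 4.47 and 4.44 with supernatant, without overlap (0.57, SE 0.091, adjusted p = 7.86e-05), within the range of the low genes. Lamb3, its partner in the laminin of hemidesmosomes, rose by 0.45 (adjusted p = 0.015), from 5.25 to 5.88 up to 5.76 to 6.22. That call was lost without C57epi.1 media replicate 1 (0.062) or supernatant replicate 4 (0.0636), in a fit of these 2 groups alone (0.078) and within replicates 3 and 4 (0.192).

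Further genes of C57epi.1 sat near the threshold. Itga3 (-0.56) and Lamc1 (0.44) were not called, but with the replicate number as a block across all arrays they gave adjusted p = 0.00728 and 0.0345.

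In Bm12.4 supernatant changed 4 genes, 1 up and 3 down, against 4.54% and 2.7% of all genes, so the 1 rise is near the background. The median difference was -0.12, beside -0.05 for all genes. Itgb2 rose by 0.41 (SE 0.0978, adjusted p = 0.00991), from 6.59, 6.80, 6.75 and 6.66 to 7.15, 7.22, 7.17 and 6.88, without overlap. Lamb1 fell by 0.72 (SE 0.186, adjusted p = 0.0166), from 8.24, 7.96, 8.41 and 8.72 to 7.92, 7.84, 7.19 and 7.50. Lama4 fell by 0.70 (SE 0.163, adjusted p = 0.00756), from 6.17 to 6.35 down to 6.21, 5.83, 5.00 and 5.27, so that replicate 1 stayed within the range of the media arrays. Itga1 fell by 0.57 (SE 0.165, adjusted p = 0.0353), from 4.78 to 5.17 down to 4.06 to 4.68.

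The count was 2 without Bm12.4 media replicate 4 or supernatant replicate 3. None of these 4 calls held in a fit of the 2 Bm12.4 groups with the replicate number as a block, where the numbers pair the arrays. There the adjusted p was 0.0585 for Itgb2, 0.0914 for Itga1, 0.114 for Lamb1 and 0.141 for Lama4, and the 1 gene called was Itgb5 (-0.38, 0.0463). Lamb1 and Lama4 each fell by 1.22 within replicates 3 and 4, while their differences within replicates 1 and 2 were -0.22 (adjusted p = 0.636) and -0.18 (0.552). The cell-cycle list averaged 9.59 and 8.88 in the 2 pairs with supernatant, beside 9.97 and 7.49 in media, and its part was not tested. The call of Lamb1 was lost without Bm12.4 media replicate 4 (0.0704) or supernatant replicates 3 (0.0811) or 4 (0.0533). Itga1 was lost without any 1 of 6 arrays: media replicate 2 (0.0523), 3 (0.0766) or 4 (0.105), or supernatant replicate 1 (0.0636), 3 (0.0674) or 4 (0.141).

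In macrophages supernatant changed 6 genes, all of them integrins, 2 up and 4 down, against 6.13% and 6.31% of all genes. The 2 rises are near the background. None of the 10 laminin chains was called, and 0 of them had an unadjusted p under 0.05 (limma). Of all 19938 genes, 4401 had such an unadjusted p. With 6.13% and 6.31% of all genes called, 0 called of 10 is close to the background. The 6 calls fell among 26 integrins, and a difference between integrins and laminin chains was not tested. Itga6 fell most: it read 9.06, 8.95, 9.41 and 9.40 in media and 7.32, 7.10, 8.20 and 7.85 with supernatant. All 4 treated arrays lay below all untreated ones (-1.59, 3.01-fold, SE 0.246, adjusted p = 5.88e-05). Itgb3 fell 2.39-fold (SE 0.224 on the log2 scale, adjusted p = 0.000308), from 9.15, 9.09, 8.63 and 8.90 to 7.25, 8.02, 7.35 and 8.12.

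Itgb5, another partner of Itgav, fell 2.35-fold (SE 0.175 on the log2 scale, adjusted p = 1.85e-05), from 11.36, 11.41, 11.60 and 11.52 to 10.08, 10.06, 10.34 and 10.49. Itgav itself was not called (8.60 ± 0.20 in media and 8.73 ± 0.31 with supernatant, SD, n = 4). Itgal rose 1.71-fold (adjusted p = 0.000495), from 8.21, 8.39, 8.33 and 7.90 to 9.20, 9.24, 8.95 and 8.55, with no overlap. Itga5 rose 1.55-fold (adjusted p = 0.00262), from 8.77 to 9.05 up to 9.48 to 9.53. The falls and rises of Itga6, Itgb3, Itgb5, Itgal and Itga5 had the same sign within both pairs of replicates.

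Itgam (12.12 ± 0.05 and 12.28 ± 0.05), Itgax (12.16 ± 0.16 and 11.99 ± 0.24) and Itgb2 (13.29 ± 0.06 and 13.36 ± 0.09, SD, n = 4) were not called. The fourth fall, of Itgad (-0.41, adjusted p = 0.0488), rested on overlapping arrays and on 1 of its probe sets. The mean of both probe sets gave -0.18 (adjusted p = 0.317), and the replicate block gave 0.0594. It was also lost without macrophage media replicate 1 (0.169), 3 (0.0818) or 4 (0.141), or supernatant replicate 2 (0.122), 3 (0.158) or 4 (0.0563).

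Itga6 and Itgb3 are also subunits of platelet receptors. The platelet and megakaryocyte list (3 genes measured) averaged 8.04 to 8.17 per array in macrophage media and 6.95 to 7.48 with supernatant, with 2 of 3 genes at 6 or more in both, and Pf4 read 10.74 ± 0.16 and 9.58 ± 0.76 (SD, n = 4). Itga2b, the platelet alpha subunit, read 6.60 ± 0.22 and 6.71 ± 0.08 and was not called. The macrophage marker list averaged 11.65 to 11.70 in media and 11.45 to 11.73 with supernatant, and 3 of its 12 genes were called: Fcgr1 rose by 2.06, and Mrc1 fell by 2.05 and Adgre1 by 0.41. Of the cell-cycle list 5 of 14 genes fell and 0 rose (median -0.99), with an average per array of 6.29 to 7.55 in media and 5.58 to 6.36 with supernatant. Of the dendritic cell list 2 of 7 genes rose and 1 fell, and of the endothelial list 2 of 6 rose and 1 fell. Among all genes 6.13% rose and 6.31% fell in macrophages. Single calls in a list and the 0 cell-cycle genes that rose are therefore near these shares. The part of other cells or of cell division in the macrophage changes was not tested.

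**Figure D4:**
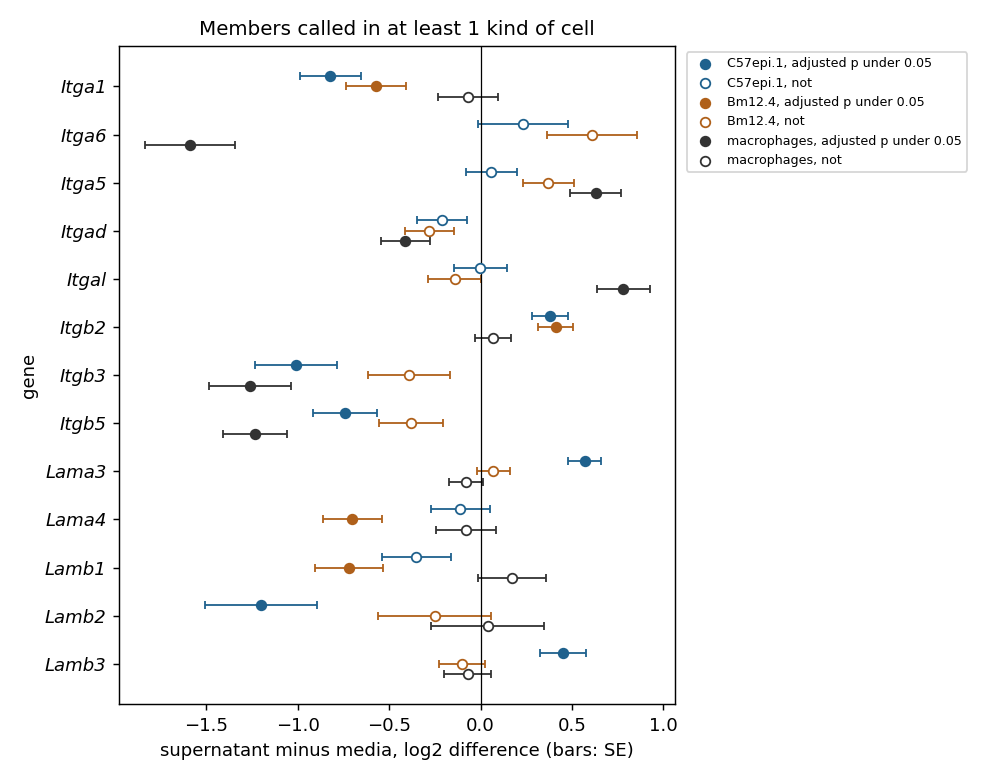
Difference between supernatant and media (log2, points; bars are SE from the limma fit) in each kind of cell for the 13 genes called in at least 1 of them; filled points had an adjusted p under 0.05. Itgb3 and Itgb5 lay below 0 in all 3 kinds of cell, and Itga6 lay at -1.59 in macrophages and above 0 in both lines.

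The responses themselves were compared by an interaction term. Between the lines (their mean) and macrophages 3 of the 36 genes responded differently, 2 with a higher response in the lines and 1 with a lower one. Among all genes the shares were 4.27% and 3.81%, so these calls are near the background. The count was 5 without C57epi.1 media replicate 2 or 4, Bm12.4 media replicate 2, Bm12.4 supernatant replicate 1 or macrophage supernatant replicate 4. Itga6 fell by 1.59 in macrophages, while its differences in C57epi.1 and Bm12.4 were 0.23 and 0.61 (interaction 2.01, SE 0.302, adjusted p = 8.65e-05). Itgal rose by 0.78 in macrophages, with differences of 0.00 in C57epi.1 and -0.14 in Bm12.4 (interaction -0.85, SE 0.177, adjusted p = 0.00277). The interaction for Lama3 was 0.40 (SE 0.112, adjusted p = 0.026) and came from C57epi.1. It was lost without macrophage media replicate 2 (0.0649) or 4 (0.0627), or supernatant replicate 3 (0.0607) or 4 (0.062).

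The interaction for Itgb5 was not called, but it passed in 12 of 35 alternative fits, and that for Lamb1 in 10. Itgb5 had differences of -1.23 in macrophages, -0.74 in C57epi.1 and -0.38 in Bm12.4. Lamb1 had differences of 0.17, -0.35 and -0.72 in the same order. Itga1 was called in both lines and not in macrophages (-0.07), but its interaction was not called, though it passed in 7 of the 35 alternative fits. Itgb3 was called in C57epi.1 and macrophages with no interaction called, though its interaction passed in 1 of the 35 alternative fits.

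Between the lines 1 gene of 36 responded differently, near the shares of all genes (1.99% with a higher and 2.04% with a lower response in C57epi.1). It was Lama3 (0.49, SE 0.129, adjusted p = 0.0302). Without any 1 of 8 arrays it was lost: C57epi.1 media replicate 1 (0.054), 3 (0.0764) or 4 (0.0573), C57epi.1 supernatant replicate 1 (0.0568) or 2 (0.0602), Bm12.4 media replicate 1 (0.0626), or Bm12.4 supernatant replicate 2 (0.0568) or 3 (0.0575). Without Bm12.4 supernatant replicate 1 the count was 2. The fall of Lamb2 in C57epi.1 (-1.20) and its difference in Bm12.4 (-0.25) did not differ by this test in the main fit. Within replicates 1 and 2 the interaction for Lamb2 was -1.16 (adjusted p = 0.023) and within replicates 3 and 4 it was -0.75 (0.017).

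Differences between the pairs of replicates were of the size of the supernatant effects for several of these genes. In media, replicates 3 and 4 did not overlap replicates 1 and 2 for 20 of the 36 genes in C57epi.1, against 52.4% of all genes, and for 18 in Bm12.4, against 62.7%. These numbers are near or below the shares of all genes. In macrophage media the number was 11, against 33.2%. Lamb2 was higher in replicates 3 and 4 by 1.07 in C57epi.1 media and by 1.49 in Bm12.4 media. The same difference for Itgb7 was -0.58 and -1.26, and for Itga2b it was 0.45 and 1.14.

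Lamb2 in Bm12.4 had a supernatant difference of 0.32 within replicates 1 and 2 and of -0.81 within replicates 3 and 4 (adjusted p = 0.00078). Itgb8 in Bm12.4 had 0.87 (adjusted p = 0.0099) and -0.25. Itgb7 in Bm12.4 had 0.28 and 0.98 (adjusted p = 0.0128). The pooled differences of Lamb2, Itgb8 and Itgb7 in Bm12.4 were not called. Other uncalled effects also passed within a single pair (limma). In replicates 3 and 4 these included Itga2b in both lines (-0.63, adjusted p = 0.00105 in C57epi.1 and -0.64, 0.00223 in Bm12.4). In C57epi.1 they also included Itgb7 (0.89, 0.0125), Lamc1 (0.65, 0.00275) and Lamb1 (-0.54, 0.0125). In replicates 1 and 2 of Bm12.4, Itga6 (0.74, 0.0276) and Itga5 (0.49, 0.0429) passed.

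**Figure D5:**
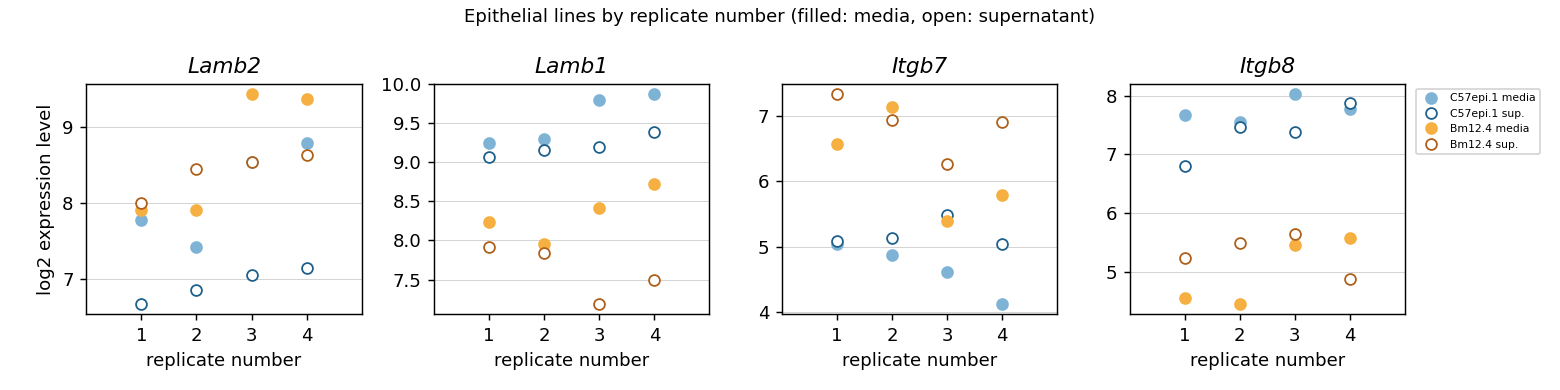
Log2 level of Lamb2, Lamb1, Itgb7 and Itgb8 against the replicate number in C57epi.1 and Bm12.4 (filled: media, open: supernatant); axes differ between panels and do not start at 0. In Bm12.4 media Lamb2 read 7.90 and 7.91 in replicates 1 and 2 and 9.43 and 9.36 in replicates 3 and 4, while with supernatant no array exceeded 8.63.

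The partners of these receptors were read from 4 lists. Of 14 counter-receptors on cell surfaces, supernatant raised 4 in macrophages and 3 in each line, and lowered 0 in each. Of all genes 6.13% rose and 6.31% fell in macrophages, 8.85% and 10.4% in C57epi.1, and 4.54% and 2.7% in Bm12.4, so 0 lowered of 14 is close to these shares (at an unadjusted p under 0.05, 1 was lower in each; limma). Icam1, the ligand of Itgal and Itgam with Itgb2, rose from 7.76 ± 0.13 to 8.63 ± 0.21 in C57epi.1, from 6.79 ± 0.16 to 8.32 ± 0.12 in Bm12.4 and from 8.69 ± 0.12 to 9.99 ± 0.44 in macrophages (SD, n = 4; adjusted p = 0.000249, 2.09e-07 and 1.49e-06). Vcam1, the ligand of Itga4, rose in Bm12.4 (0.90, adjusted p = 0.00549) and macrophages (1.34, 3.83e-05), while in C57epi.1 it read 11.72 ± 0.70 and 11.71 ± 0.13. Cd47, which associates with integrins and is the ligand of Sirpa, rose in all 3 kinds of cell, by 0.86, 0.93 and 0.85.

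Of 34 basement membrane and matrix genes, supernatant raised 2 and lowered 7 in C57epi.1, raised 3 and lowered 0 in Bm12.4 (at an unadjusted p under 0.05 in limma, 5 were lower), and raised 1 and lowered 5 in macrophages. The 2 raised in C57epi.1, the 0 lowered in Bm12.4 and the 1 raised in macrophages are near or below the shares of all genes just given. Ltbp1, which holds latent TGF-beta in the matrix, rose by 1.23 in C57epi.1 (adjusted p = 3.49e-06) and 2.78 in Bm12.4 (5.37e-12). Npnt, a ligand of Itga8, fell by 1.06 in C57epi.1 (1.83e-07), and Fbln2, a laminin-binding matrix protein, by 1.16 (0.000646). In macrophages Fn1, the ligand of Itga5, fell by 1.63, from 13.19 ± 0.15 to 11.56 ± 0.28 (adjusted p = 4.53e-09), and Mfge8, a bridge from Itgav receptors to dying cells, by 0.92 (0.012).

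Between cells in media, 20 of the 34 matrix genes were higher and 6 lower in the lines than in macrophages, against 24.7% and 22.4% of all genes, led by Sparc (6.17) and Nid1 (4.19), the latter a laminin binder that links it to collagen IV. The 2 lines differed at 18 of the 34, 12 higher in C57epi.1 and 6 lower, against 12% and 12.5% of all genes. Nid2, the other nidogen, read 9.03 ± 1.17 in Bm12.4 media and 4.38 ± 0.17 in C57epi.1 media, and Fbln1 10.60 ± 0.83 and 4.72 ± 0.31. Ltbp1 was higher in C57epi.1, at 8.66 ± 0.19 against 5.17 ± 0.31 (SD, n = 4; adjusted p = 1.52e-10, 3.31e-14 and 2.7e-14).

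Of 37 genes for focal adhesion and integrin activation, 33 differed between lines and macrophages in media, 9 higher in the lines and 24 lower, against 24.7% and 22.4% of all genes, so the share that was higher is at that of all genes. Paralogs took opposite sides: the kindlin Fermt3 read 10.20 ± 0.10 in macrophages and 4.86 ± 0.29 and 5.13 ± 0.17 in the lines, and the kindlin Fermt2 4.20 ± 0.25 and 9.46 ± 0.16 and 8.63 ± 0.31. The adaptor Parvg was lower in the lines by 5.58 and Parva higher by 5.51. Ptk2b, a focal adhesion kinase relative of leukocytes, read 8.91 ± 0.56 in Bm12.4 media, 5.09 ± 0.47 in C57epi.1 media and 9.74 ± 0.02 in macrophage media (SD, n = 4).

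Supernatant changed 10 of the 37 in C57epi.1 (4 up, 6 down; Tns2 -0.84, Apbb1ip 0.57), 2 in Bm12.4 (Parvb -0.82, Tln1 0.31) and 11 in macrophages (7 up, 4 down; Zyx 0.87, Tns1 -0.80, Fyb 0.72, Lcp2 0.68). Of all genes 8.85% rose and 10.4% fell in C57epi.1, and 4.54% and 2.7% in Bm12.4 (macrophages 6.13% and 6.31%), so the count in Bm12.4 and the rises in C57epi.1 are near the background. Of 16 hemidesmosome genes and other laminin receptors, supernatant raised 0 and lowered 4 in C57epi.1, and raised 0 and lowered 1 in Bm12.4 (at an unadjusted p under 0.05 in limma, 2 and 1 were higher). With 8.85% and 4.54% of all genes raised, 0 of 16 is close to the background. Cd9, a tetraspanin that binds integrins, fell by 0.83 in C57epi.1 (adjusted p = 0.0021) and 0.77 in Bm12.4 (0.00912). Dag1, dystroglycan, fell by 0.71 in C57epi.1 (0.000562). In macrophages 3 rose and 4 fell, and Bcam, a receptor for the laminin alpha 5 chain, fell by 1.27 (3.8e-08), from 7.13 ± 0.04 to 5.86 ± 0.22 (SD, n = 4).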

How the data were processed

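Total RNA (100 ng per array) was measured on 24 Affymetrix arrays, in 6 groups of 4. The authors deposited log2 expression values per probe set; GCOS, Partek 6.2 and RMA are named in the submitters' processing notes, with settings not given in the sources used here. No array intensities or detection p-values were used. Of 28853 probe sets, 21789 carry 1 gene symbol, 1621 several and 5443 none; the highest-mean probe set per symbol gave 19938 genes.

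Here, limma 3.58.1 (R 4.3.3) fitted 6 group means to all 24 arrays, with residual df of 18 and prior df of 3.62. All 9 comparisons were two-sided moderated tests, adjusted by Benjamini-Hochberg over 19938 genes and called under 0.05. The fit was tested on simulated data. Each gene of the family was followed and named where called, and 2 to 4 genes with the largest called difference were named from each other list. The members, gene lists and marker lists were chosen with earlier results of these data known, and the cell-cycle list after seeing the data. Icam1, Fn1 and a few other list genes with levels in all groups were chosen after their values were seen.

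Same-numbered arrays were checked for shared deviations from their group means. Over 60 such pairs the correlation ran from -0.177 to 0.683, and 24 were over 0.1. Every pair was over 0.1 for C57epi.1 media with Bm12.4 media (0.512 to 0.625) and Bm12.4 media with Bm12.4 supernatant (0.226 to 0.683), so those comparisons were also fitted alone with the replicate number as a block. That fit was added after seeing the data. Within groups, arrays correlated at 0.967 to 0.9975 across genes and 0 pairs were identical. Promoter sequences came from RefSeq (GRCm38.p6), with chromosome 18, which holds Lama3, left out, and matched 23 of the 36 genes. The array number limits the precision. Alternatives covered normalization, centring, the fitted groups, the prior, array weights, a filter at a level of 6, the probe set rule, the block, the replicate pairs and each array left out.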

Additional observations from a re-analysis of the deposited data

Results flagged for a closer look

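In 216 groups of 4 arrays (36 genes in 6 groups), 7 had 1 array far from the other 3 by Dixon's test. Chance marks about 1 group in 20. Itga3 read 5.47 in macrophage media replicate 2, with the nearest array at 4.85. Lamb2 read 5.75 in macrophage media replicate 3, beside 5.42. Itgb5 read 8.45 in C57epi.1 supernatant replicate 1, beside 8.87, and was the 1 such array in a called supernatant effect. Itgax read 4.24 in C57epi.1 supernatant replicate 1, beside 3.88. Among the low genes, Itgae read 3.90 in Bm12.4 media replicate 2, beside 3.76, and Lama2 read 3.51 in macrophage supernatant replicate 3, beside 3.77. Lama4 read 3.82 in C57epi.1 media replicate 2, beside 3.62.

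Responses to supernatant differed between kinds of cell for 3 genes by an interaction term in limma. Itga6 (2.01, adjusted p = 8.65e-05), Itgal (-0.85, 0.00277) and Lama3 (0.40, 0.026) differed between the lines and macrophages, and Lama3 (0.49, 0.0302) between the lines. Among all genes 4.27% had a higher and 3.81% a lower response in the lines than in macrophages. Between the lines the shares were 1.99% and 2.04%, so the numbers of calls are near the background. Both Lama3 calls were lost without any 1 of several arrays, as given above.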

How the results depend on the processing

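The 9 comparisons gave 93 called differences among the 36 genes; over 12 other settings and 24 arrays left out in turn, 75 stayed called in every fit, 18 were lost in at least 1 and 0 changed sign, while 45 others were called in at least 1. The counts of called genes moved by over 1.5 times as follows. In C57epi.1 supernatant changed 7 genes and 12 with array weights. In Bm12.4 it changed 4, but 0 in a fit of only the groups compared (8 at an unadjusted p under 0.05, limma), 2 with array weights, 1 with those groups and the replicate block, and 7 within replicates 3 and 4. Responses of lines and macrophages differed at 3 genes, but at 5 after quantile normalization, median centring or the filter on low genes, 8 with array weights and 11 within replicates 3 and 4. Responses of the lines differed at 1 gene, but at 2 with median centring, array weights or within replicates 1 and 2, 3 within replicates 3 and 4, and 0 with only those groups or the low filter (3 and 2 at an unadjusted p under 0.05, limma). With 1 array left out, the counts ran from 6 to 9 for C57epi.1, 2 to 4 for Bm12.4, 5 to 6 for macrophages, 20 to 22 and 21 to 24 for lines against macrophages in media and supernatant, 11 to 14 and 15 to 17 for C57epi.1 against Bm12.4, and 2 to 5 and 0 to 2 for the response differences. With the replicate block over all arrays, the counts in the order of the 9 comparisons were 9, 4, 5, 20, 23, 13, 16, 4 and 1. The cause was not tested. The 14 genes with every group mean under 6 sit near the low end of the array's scale, and no detection p was used to separate signal from background there.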

Other observations

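Partners of the receptors also differed between the cells at rest. Of the 14 counter-receptors, 10 differed between the lines and macrophages in media, 4 higher and 6 lower in the lines, against 24.7% and 22.4% of all genes (limma, adjusted p under 0.05). Vcam1 read 5.77 ± 0.10 in macrophages, 11.72 ± 0.70 in C57epi.1 and 11.87 ± 0.05 in Bm12.4 (SD, n = 4), so the ligand was high in the cells where its receptor subunit Itga4 was low, and the reverse. Sirpa, the receptor of Cd47 on phagocytes, read 12.34 ± 0.13 in macrophages, 8.74 ± 0.40 in Bm12.4 and 4.91 ± 0.18 in C57epi.1 (SD, n = 4). Like Itgb2, Itgb7, Itga6 and Ptk2b it was higher in Bm12.4 than in C57epi.1. Of the 16 hemidesmosome genes and other laminin receptors, 13 differed between lines and macrophages, 8 higher in the lines and 5 lower, against the same shares. Among them were the syndecans Sdc2 (5.55) and Sdc4 (3.27), higher in the lines, and Sdc1 (-2.20), lower.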
